A study of Mus musculus with 12 samples.

Results

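The 7 genes examined here, Ctnnb1, Tcf7l1, Tcf7, Lef1, Axin2, Sp5 and Lgr5, encode effectors of WNT signaling. The regions described are the merged ATAC-seq peaks that overlapped the body of one of these genes or the 50 kb on either side of it in mm10, which were 176 of the 170548 regions in the list. ATAC-seq marks accessible chromatin by the insertion of adapters with the transposase Tn5. The rule used gene positions alone and no measured value.

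The libraries came from mouse ES cells of the lines ZHBTc4 and 2TS22C. In ZHBTc4 cells the only source of OCT4 is a transgene that doxycycline (dox) shuts off, and in 2TS22C cells the same holds for SOX2. There were 12 libraries in 6 groups of 2 replicates. In ZHBTc4, 4 libraries were made at 24 hr, of untreated OCT4 ON cells and of OCT4 OFF cells given dox at 1 µg/ml. In 2TS22C, 8 libraries were made, of SOX2 ON and SOX2 OFF cells at 26 hr and again at 40 hr with the same dose. Each factor was removed in a single line, so line and factor cannot be told apart. All groups grew on gelatin in medium with serum, LIF, the MEK inhibitor PD184352 at 0.8 µM and the GSK3 inhibitor CHIR99021 at 3 µM, so none of the groups shows these loci without GSK3 inhibition. The list pools the peaks of all conditions and gives each region a start and an end but no read number, so no region could be assigned to a condition and depth per library is unknown. The sources used here do not say whether peaks of published serum + LIF data entered the merge as well. The values that follow describe where chromatin was called accessible in at least some of the merged data. No statistical test was run on them.

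In the canonical WNT pathway, AXIN proteins, APC and the kinase GSK3 hold β-catenin at a low level by marking it for degradation. WNT ligands, or a GSK3 inhibitor in their place, let β-catenin accumulate and enter the nucleus, where it acts through the DNA-binding proteins TCF7, LEF1, TCF7L1 and TCF7L2. In ES cells TCF7L1 is known mainly as a repressor of pluripotency genes whose repression β-catenin relieves. Ctnnb1 encodes β-catenin itself, Axin2 is a negative feedback regulator that the pathway induces, Sp5 is a zinc-finger transcription factor and direct target, and Lgr5 is a receptor for R-spondins and a stem cell marker in the intestine.

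The sequence that TCF/LEF proteins recognize was taken as ATCAAAG, searched on both strands, so that it can appear as CTTTGAT on the printed strand. It occurred in the central 200 bp of 7 of the 176 regions (3.98%, 95% Wilson interval 1.94 to 7.98%), against 3.52% of all regions in the list. For each gene with such a region, the one with the most matches, or with equal numbers the one nearest the gene start, is printed here. Tcf7l1 and Lgr5 had none. All sequences are on the plus strand of mm10 (GRCm38), and capitals mark the TCF/LEF match. The windows are chr9:120906551-120906750 upstream of Ctnnb1, chr11:52314328-52314527 upstream of Tcf7, chr3:131200042-131200241 in intron 8 of Lef1, chr11:108921194-108921285 in intron 1 of Axin2 and chr2:70474752-70474922 directly upstream of Sp5. The last 2 were shortened so that they hold no exon of a protein-coding gene.
Ctnnb1: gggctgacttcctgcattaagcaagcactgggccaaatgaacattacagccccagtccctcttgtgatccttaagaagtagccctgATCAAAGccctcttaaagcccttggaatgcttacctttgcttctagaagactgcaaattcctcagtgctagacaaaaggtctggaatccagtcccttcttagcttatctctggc
Tcf7: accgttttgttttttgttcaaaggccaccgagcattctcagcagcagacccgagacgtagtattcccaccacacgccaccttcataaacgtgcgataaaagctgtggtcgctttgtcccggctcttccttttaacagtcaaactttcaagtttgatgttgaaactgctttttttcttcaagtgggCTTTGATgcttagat
Lef1: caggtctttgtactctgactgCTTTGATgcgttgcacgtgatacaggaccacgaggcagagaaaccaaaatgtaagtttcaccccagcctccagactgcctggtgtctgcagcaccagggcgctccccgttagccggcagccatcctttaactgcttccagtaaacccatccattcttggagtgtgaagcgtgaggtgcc
Axin2: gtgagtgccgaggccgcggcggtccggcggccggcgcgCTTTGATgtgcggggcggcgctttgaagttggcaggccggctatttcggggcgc
Sp5: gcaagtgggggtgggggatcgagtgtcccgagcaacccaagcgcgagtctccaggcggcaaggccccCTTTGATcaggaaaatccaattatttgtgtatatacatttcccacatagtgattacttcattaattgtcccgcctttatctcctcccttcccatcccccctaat

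The match at Sp5 lay 101 bp upstream of the gene start, inside the region that covers the start. It was the only one of the 7 central matches whose letters ran on to ATCAAAGG. The match at Axin2 lay 886 bp downstream of the start, also inside the region that covers the start. The other printed matches were farther away, at 22.6 kb upstream of Ctnnb1, 31.5 kb upstream of Tcf7 and 89.6 kb into Lef1. Those not printed lay 52.45 kb downstream of the Ctnnb1 start, inside Ulk4, and 41.98 kb downstream of the Tcf7 start, inside Skp1a.

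The DNA element that OCT4 and SOX2 occupy as a heterodimer is a SOX site, CATTGTT, directly followed by an octamer, ATGCAAAT. Only 1 of the 176 regions held this composite with at most 2 mismatches in its central 200 bp, against 0.224% of the list. These are matches to fixed letters. The motif search of the paper was a different one and found the OCT4::SOX2 motif at many more loci. The shares given here therefore do not tell how often that motif occurs. The 1 member region was the one nearest upstream of Tcf7, chr11:52286315-52286727, a region of 413 bp whose center lay 3.51 kb from the Tcf7 start. The element at chr11:52286567-52286581 on the plus strand differed from the composite at 1 position, C1T, counted from the 5′ end of the SOX site. Over the whole list, 37 regions (0.0217%) came as close or closer, and 1 of these held the composite without a mismatch. The central 200 bp of the Tcf7 region are shown with the composite in capitals (chr11:52286421-52286620, plus strand).
Tcf7 upstream: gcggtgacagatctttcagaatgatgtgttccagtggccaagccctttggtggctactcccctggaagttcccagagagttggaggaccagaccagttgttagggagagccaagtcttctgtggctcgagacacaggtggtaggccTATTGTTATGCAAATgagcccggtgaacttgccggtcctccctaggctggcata

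The next closest of the member regions had 3 mismatches, which 1.47% of the list reached or bettered. They lay in intron 3 of Tcf7l1 at 30.7 kb from its start, in intron 3 of Lef1 at 7.69 kb from its start, and 33.2 kb upstream of Axin2.

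**Figure D1:**
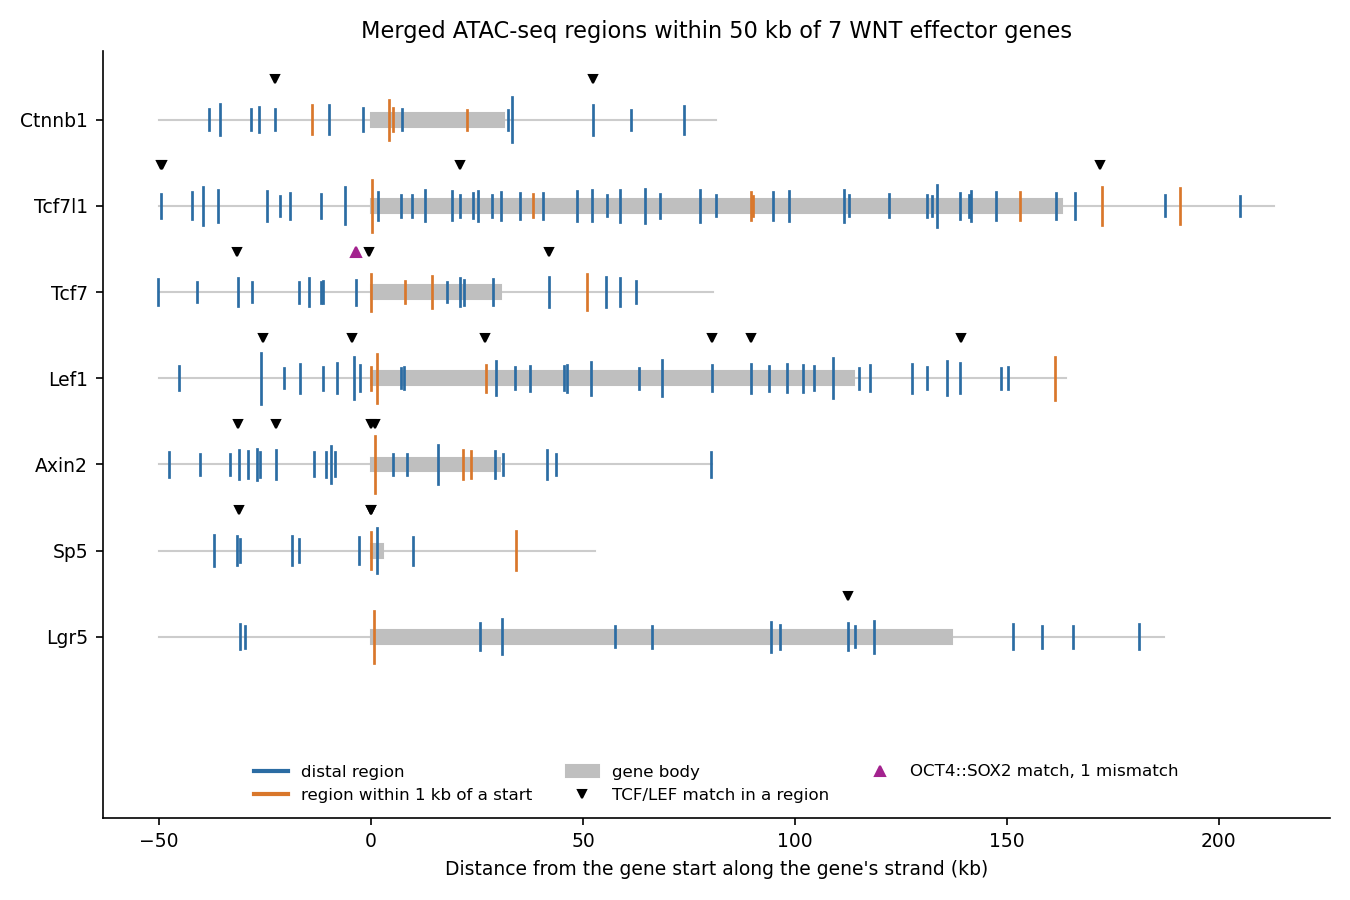
Each row is 1 gene drawn along its own strand, with distance from the gene start in kb on the horizontal axis, the gene body in grey and the 50 kb flanks as a thin line. Vertical bars stand for the 176 regions, taller for wider regions, in blue for distal regions and in orange for regions with their center within 1 kb of an annotated start of any gene. Black triangles mark the 23 TCF/LEF matches inside regions and the purple triangle marks the OCT4::SOX2 element upstream of Tcf7. Tcf7l1 carries the most regions, and the flank upstream of Lgr5 holds 2.

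The number of regions around each gene followed its length only in part. There were 17 around Ctnnb1, 52 around Tcf7l1, 21 around Tcf7, 37 around Lef1, 23 around Axin2, 10 around Sp5 and 16 around Lgr5. To compare genes of unequal length, the number was divided by the length of the body and both flanks. Tcf7l1 had 19.8 regions per 100 kb, Axin2 17.6, Lef1 17.3, Tcf7 16.1, Ctnnb1 12.9, Sp5 9.73 and Lgr5 6.74. The median over 21938 protein-coding genes was 10.2 per 100 kb, with quartiles at 5.7 and 15.1. Tcf7l1 was therefore denser than 92.1% of protein-coding genes and Lgr5 than 30.4%, with Sp5 at 47.3% and Ctnnb1 at 64.6%. No neighbors in this order were apart beyond counting error. The exact Poisson interval of Lgr5, 3.85 to 10.9, lay below those of Lef1, 12.2 to 23.8, of Axin2, 11.2 to 26.5, and of Tcf7l1, 14.8 to 25.9. It overlapped that of Tcf7, 9.95 to 24.6. These intervals cover counting error only, since regions are not replicates of a condition.

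**Figure D2:**
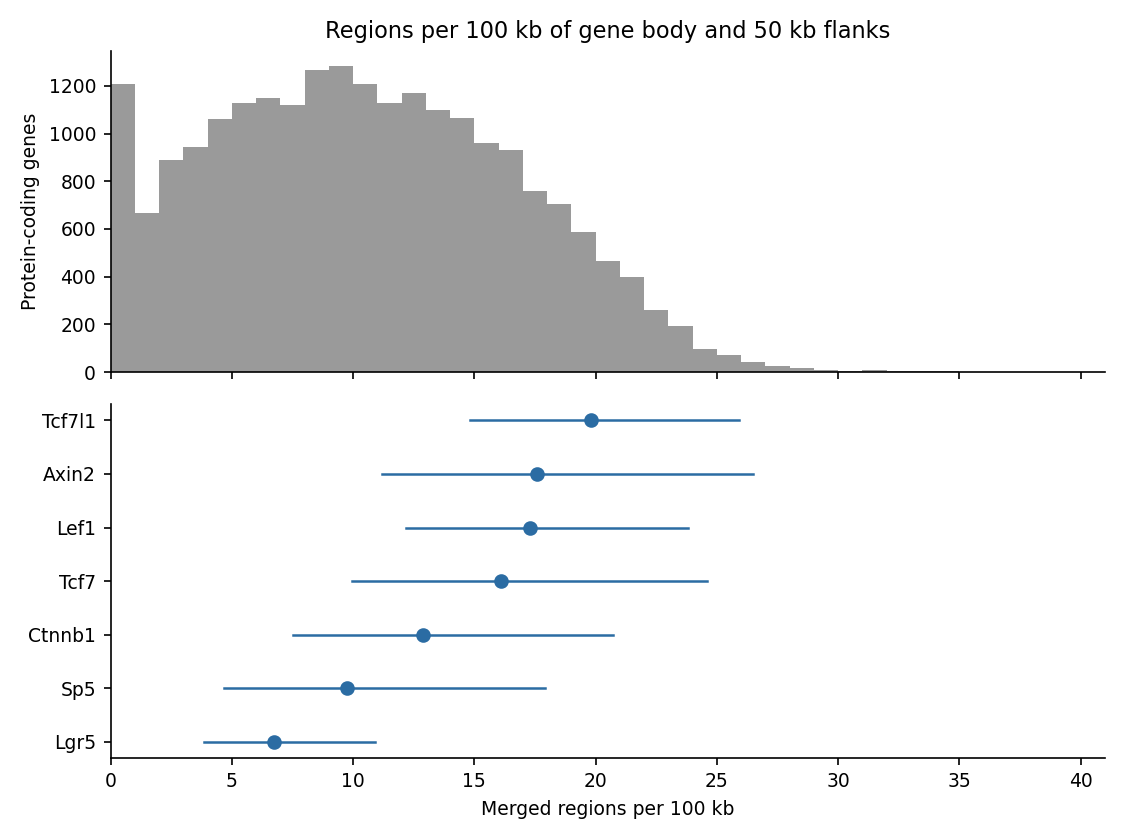
The upper panel is a histogram of merged regions per 100 kb (horizontal axis) over protein-coding genes (vertical axis, number of genes), and the lower panel gives the same measure for the 7 genes with exact 95% Poisson intervals. Tcf7l1, Axin2, Lef1 and Tcf7 lie between 16.1 and 19.8, in the upper part of the distribution, and Lgr5 lies at 6.74.

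Most of the regions were distal, with a center more than 1 kb from the nearest annotated transcription start site (TSS). This held for 151 of 176 (85.8%, 95% Wilson interval 79.9 to 90.2%), against 82.7% of the list. The member regions had a median width of 479 bp against 379 bp over the list, and the distal ones 442 bp against 344 bp. Wider than 1 kb were 20 of them (11.4%, interval 7.48 to 16.9%), against 9.8% of the list. Few regions had a center made up mainly of repeats. In the central 200 bp, 9 of 176 (5.11%, interval 2.71 to 9.43%) were over 50% soft-masked, against 18.1% of the list. The median GC content in this window was 52.5% against 49.5%. There, 9.66% of the member regions held 10 or more CpG dinucleotides, against 13%.

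All 7 genes had a region within 1 kb of an annotated start, here and in the counts by gene that follow taken from the nearest edge of the region, and in all 7 a region covered at least 1 start. Over protein-coding genes these shares were 74.7% and 68.9%. Of the 46 annotated transcript starts of the 7 genes, 24 lay inside a region, against 53.7% of 101639 transcript starts of protein-coding genes.

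Ctnnb1 had 2 regions at its main promoter, chr9:120932859-120934054, of 1196 bp, and chr9:120934247-120934581, of 335 bp in intron 1. The first covered 6 of the 15 transcript starts. The outermost annotated start lay 1.82 kb from the nearest region, so that the gene as annotated begins upstream of its accessible promoter. Within the gene body 4 regions were found. Beside those at the promoter they were a region of 210 bp in intron 1 and one of 159 bp over an exon. The 1446 bp region past the 3′ end of the gene, inside the neighboring Ulk4, was the widest at this locus. The nearest distal region upstream lay 1.98 kb from the outermost annotated start, and so farther from the main promoter.

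Of the genes for DNA-binding factors, Tcf7l1 was covered at its start by a region of 1863 bp, chr6:72788014-72789876, which held 3 of its 5 transcript starts. Of the 52 regions, 38 lay in the gene body, and intron 3 alone, 139 kb long, held the centers of 32 of them. This was 23 regions per 100 kb of intron. A further 4 centers lay in intron 4, which spans 14.9 kb. The widest region of the gene apart from its start was one of 1340 bp, 133 kb into the gene in intron 3. The nearest distal region upstream was 1053 bp wide and lay 6.15 kb from the start, and its central 200 bp held a SOX site.

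Tcf7 was covered at its outer start by a region of 1055 bp, chr11:52282599-52283653, its widest. Its inner start lay 28 bp outside the edge of that region. In the body there were 7 regions, 4 of them with centers in intron 2, which spans 20.5 kb. Of the 9 regions upstream, the nearest was the one with the OCT4::SOX2 element printed above. None of the other 8 lay closer than 11.4 kb.

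Lef1 had 2 regions at its start, of 292 bp (chr3:131110226-131110517) and 1705 bp (chr3:131111043-131112747). The first covered the starts of 3 of the 8 transcripts, and the second ended 50 bp before the next annotated start. A shorter curated RefSeq transcript of Lef1 starts far inside intron 3, at chr3:131156294. Its start was not covered, but lay 49 bp from a region of 522 bp (chr3:131156343-131156864) and between that region and one of 337 bp (chr3:131155867-131156203). Inner starts of Lef1 and Tcf7 are known to give forms without the β-catenin-binding domain in other tissues. Whether the inner starts named here give such forms was not examined. Intron 3 of Lef1, 69.1 kb long, held 11 region centers, and intron 11 held 4 in 18.1 kb. The widest region of the locus, 1797 bp, lay 25.9 kb upstream of the gene, and the nearest distal one upstream was 443 bp wide at 2.70 kb.

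Axin2 had the widest of all 176 regions at its start. It was 2161 bp long, chr11:108920106-108922266, and covered 4 of the 7 transcript starts. Upstream the regions came in runs, with 6 centers between 34 and 22 kb from the start and 4 between 14 and 8 kb, the nearest at 8.39 kb. In the body 7 regions were found, of which a region of 1189 bp in intron 3 was the widest after the start. Beyond 43.7 kb downstream of the start a stretch of 36.1 kb held no region, the longest gap at any of the 7 loci. For 23 of 23 Axin2 regions the nearest start of a protein-coding gene was that of Axin2 itself. This was so for 9 of 10 at Sp5, 43 of 52 at Tcf7l1 and 12 of 17 at Ctnnb1. It was so for 13 of 21 at Tcf7, 22 of 37 at Lef1 and 8 of 16 at Lgr5. The share over all protein-coding genes was not counted.

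Sp5, a gene of 2.81 kb, had 2 regions in contact with its body. A region of 1047 bp, chr2:70474329-70475375, covered its start and a region of 1484 bp, chr2:70475698-70477181, its widest, lay over exon 2. The nearest distal region upstream was 531 bp wide and 2.78 kb from the start.

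Lgr5 was covered at its start by a region of 1858 bp, chr10:115586238-115588095, its widest, which held 6 of 8 transcript starts. The rest of the locus was sparse. The body of 137 kb held 10 regions, intron 2 with 18.2 kb held none, and the flank upstream held only 2, at 29.8 and 30.9 kb. A gap of 32.1 kb ran across the 3′ end of the gene. Regions covered 3.51% of the Lgr5 window, against 6.22% at Ctnnb1, 7.15% at Sp5, 7.33% at Tcf7, 9.65% at Axin2, 10.3% at Lef1 and 10.9% at Tcf7l1.

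**Figure D3:**
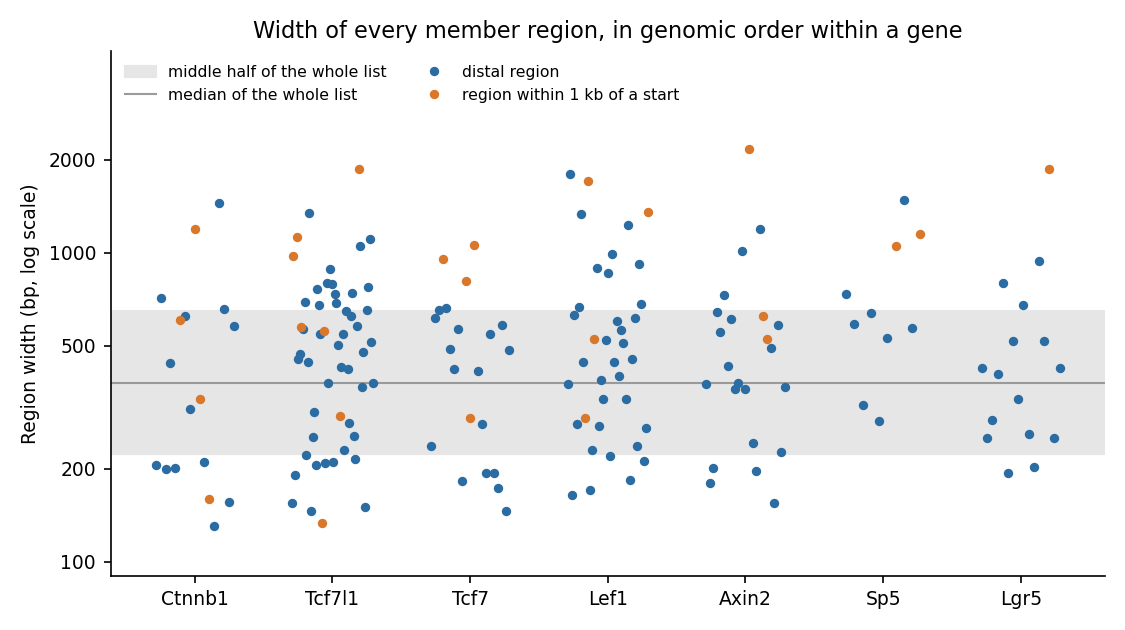
Each point is 1 region, with its width in bp on a log axis, in genomic order within each gene (horizontal axis), in blue for distal regions and orange for those within 1 kb of an annotated start of any gene. The grey band and line give the interquartile range and the median of the whole list. The widest point is the 2161 bp region at the Axin2 start, and start regions of Tcf7l1 and Lgr5 follow at 1863 and 1858 bp.

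Starts of 10 other protein-coding genes fell in these windows, and 8 of them had a region with its edge within 1 kb: Ulk4 beside Ctnnb1, Elmod3, Retsat and Tgoln1 beside Tcf7l1, Skp1a beside Tcf7, Hadh beside Lef1, Erich2 beside Sp5, and Zfc3h1 beside Lgr5. Those without were the olfactory receptor gene Olfr1371 beside Tcf7 and A930009A15Rik beside Lgr5. Over all protein-coding genes, 74.7% had a region within 1 kb of a start. Of 23 other annotated genes with a start there, noncoding RNAs and pseudogenes, 11 had a region within 1 kb (1700020M21Rik, Gm15401, Gm15402, Gm37736, Gm26551, A630014C17Rik, Gm43352, Gm42449, Gm11670, Rpl9-ps7 and Erich2os). The remaining 12 did not (Gm39460, 4930593C16Rik, Mir7090, Gm45053, Gm20536, Gm37969, Gm38114, Gm38320, Gm12207, Gad1os, Gm37026 and Gm8960). The share over all noncoding genes and pseudogenes was not counted, so whether 11 of 23 is many or few is unknown.

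The TCF/LEF sequence was then counted along the whole of each region rather than at its center. There were 23 matches in 20 of the 176 regions, 16 of them in distal regions. Matches along whole regions were not counted for the rest of the list. Whether 20 of 176 is many or few for such regions is therefore unknown. Lef1 had 6 matches, Tcf7l1 and Axin2 had 4 each, Tcf7 and Sp5 had 3 each, Ctnnb1 had 2 and Lgr5 had 1. Of all 223 matches in the 7 windows, 10.3% fell inside regions, which covered 7.99% of the bases. This came to 0.238 matches per kb of region and 0.18 per kb outside. The rate was higher inside than outside at 6 of the 7 genes, with the largest ratio at Tcf7, 0.313 against 0.124 per kb, and lower inside at Lgr5 with 0.12 against 0.227 per kb, where the single match in a region stood against 53 in the window. These numbers are small. GC content was 53.2% inside the regions and 45.3% in the rest of the windows, and its part in the match rates was not tested.

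Matches within 1 kb of a gene start were found at Axin2, Sp5 and Tcf7. Beside those printed above, they lay 81 bp downstream of the Axin2 start (chr11:108920427-108920433), 92 bp downstream of the Sp5 start (chr2:70475012-70475018) and 357 bp upstream of the outer Tcf7 start (chr11:52283368-52283374). Axin2 and Sp5 had 2 matches each in the region over their start, of 2161 and 1047 bp. How often start regions of the list hold 2 was not counted. Of 25 member regions with a center within 1 kb of any start, 2 held ATCAAAG in the central 200 bp. This was 8% (interval 2.22 to 25%), against 1.9% of such regions in the list. Among distal regions it was 3.31% against 3.86%. The 10 bases on either side of the 3 matches not printed before are shown on the plus strand, with the match in capitals. They were chosen after the positions were known.
Axin2 start: gccggctgcgCTTTGATaaggtcctgg
Sp5 start: agccgctattCTTTGATgattgggtag
Tcf7 start: gggtcggaacATCAAAGgcaccgcggg

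RefSeq promoter sequences, from 250 bases before to 50 bases after a start, were given for 6 of the 7 genes and 11 starts in GRCm38.p6. Only that of Sp5 held ATCAAAG, against 3.73% of all 32851 promoters in the table.

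Over all 176 regions, other forms of the TCF/LEF site had shares in the central 200 bp whose intervals held that of the list. For a single gene, an interval was taken only for TTCAAAG at Axin2. AACAAAG, which SOX proteins also recognize, was in the central 200 bp of 11 regions (6.25%, interval 3.53 to 10.8%), against 7.09% of the list. Of these 11, 3 were among the 10 regions of Sp5. TACAAAG was in 6 (3.41%), against 4.12%. TTCAAAG was in 13 (7.39%, interval 4.37 to 12.2%), against 4.89%. In the central 400 bp it was in 25 (14.2%, interval 9.81 to 20.1%), against 9.31%, where the interval lay above the share of the list. Axin2 carried 6 of these 13, in 6 of its 23 regions (26.1%, interval 12.5 to 46.5%), while the other 6 genes together had 7 in 153 (4.58%). They lay at 47.7, 26.1 and 9.38 kb upstream of the Axin2 start, in the region over the start, and at 41.4 and 80.1 kb downstream. This count at Axin2 was singled out after the values were seen. Any of the 4 forms was present in 29 regions (16.5%, interval 11.7 to 22.7%), against 17.9% of the list.

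Sites of the factors that the study removed were similarly spread. CATTGTT was in the central 200 bp of 10 regions (5.68%, interval 3.12 to 10.1%), against 4.12% of the list. The octamer was in 5 (2.84%, interval 1.22 to 6.48%), against 2.01%, and one of these is the octamer of the Tcf7 composite. One or the other was in 15 regions (8.52%, interval 5.23 to 13.6%), against 6.03%. By gene, these 15 regions were 5 at Tcf7l1, 3 at Ctnnb1, 3 at Lef1, 2 at Tcf7 and 2 at Lgr5, and 0 at Axin2 and Sp5. Over all 176 regions the interval of each of these shares holds that of the list, so they cannot tell the member regions from the rest. For single genes no interval was taken for these sites.

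Over all 176 regions, sites of other factors of ES cells and trophoblast were also near the list in the central 200 bp. TCAAGGTCA, bound by ESRRB, was in 0 regions, which allows a share of up to 2.14% by the Wilson interval, against 1.2% of the list. GGGNGTGGC, bound by KLF factors, was in 4 (2.27%), against 3.23%, and GCCNNNGGC, bound by AP-2 factors, was in 15 (8.52%), against 9.37%. In the central 400 bp the AP-2 site was in 13 of 25 member regions within 1 kb of a start. This was 52% (interval 33.5 to 70%), against 28.6% of such regions in the list. For distal regions it was 12.6% against 13.3%. The AP-2 count near starts was singled out after the values were seen. In the central 200 bp it was 28% (interval 14.3 to 47.6%), against 16.8%, and that interval holds the list. Near starts in the central 400 bp, other sites also stood above the list, such as ATCAAAG with 16% against 3.91%. Others stood below it, such as CATTGTT with 0% against 3.78% and the KLF site with 4% against 6.91%. The core of the CTCF site was in the central 200 bp of 3 regions (1.7%, interval 0.581 to 4.89%), against 1.06%. These lay 153 kb into Tcf7l1 in intron 4, 28.9 kb into Tcf7 in intron 9, and 14.6 kb upstream of Tcf7.

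**Figure D4:**
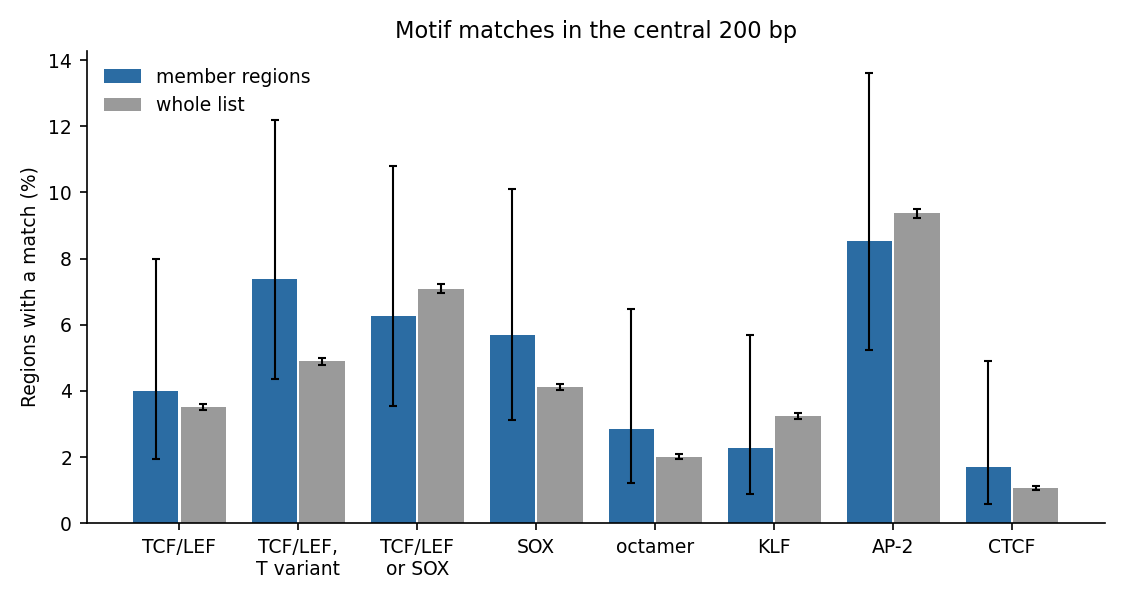
Bars give the percent of regions with a match in the central 200 bp for 8 motifs (horizontal axis), in blue for the 176 member regions and in grey for the whole list, with 95% Wilson intervals. The T variant is TTCAAAG. Every member interval includes the share of the whole list.

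The other genes of the pathway were accessible at their starts about as often as the effectors. Of 96 other WNT genes, 94 had a region within 1 kb of a start and 91 had a start inside a region. Over all protein-coding genes these shares were 74.7% and 68.9%. The WNT genes without a region within 1 kb were Wnt10a, a ligand, and Dkk4, a secreted inhibitor. The median density of the 96 genes was 13.2 regions per 100 kb, against 16.1 for the 7 effectors and 10.2 for protein-coding genes. By role, the medians were 15.4 for 21 ligands and secretion factors, 10.6 for 21 receptors and R-spondins, 14.3 for 13 genes of the destruction complex and Dishevelled, 14.4 for 12 nuclear cofactors, 10.2 for 17 inhibitors and feedback genes, and 15.8 for 12 targets.

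Within each role the genes varied widely. Among ligands and their secretion factors, Wnt10b had 24.2 regions per 100 kb and Wls, the carrier of WNT proteins to the cell surface, 2.51. Among receptors, the co-receptor Lrp5 had 17.3 and the Frizzled gene Fzd1 1.92. In the destruction complex, Gsk3a, one of the genes for the kinase that CHIR99021 inhibits, had 21.9 and Amer1, a membrane adaptor, 1.61. Among nuclear cofactors, the co-repressor genes Tle2 and Ctbp1 had 25.8 and 7.07. Among inhibitors, Notum, which removes the lipid from WNT proteins, had 22.3 and Wif1, which binds WNT proteins, 4.8. Among targets, the pluripotency gene Nanog, which TCF7L1 represses, had 27.1 and the mesendoderm gene Mixl1 5.77. The FGF-ERK pathway, on which the other inhibitor in the medium acts, was taken as 10 ligand, receptor and feedback genes. Of these, 10 had a region within 1 kb of a start, against 74.7% of protein-coding genes. Their median density was 15.5.

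**Figure D5:**
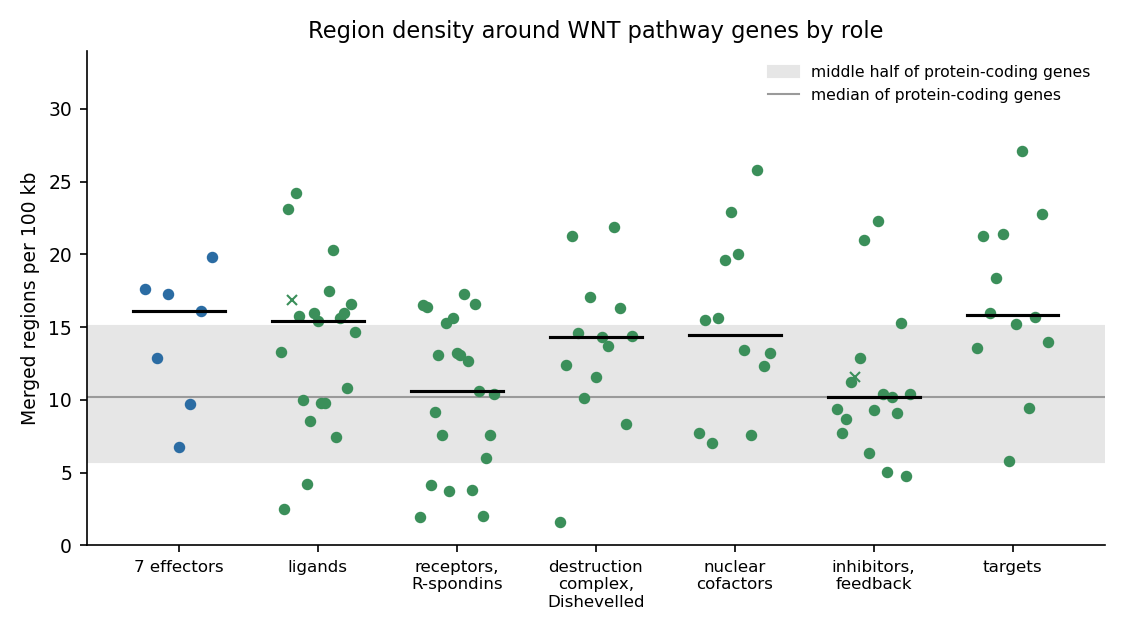
Each point is 1 gene, with merged regions per 100 kb on the vertical axis and genes grouped by role on the horizontal axis. Black bars are medians, the grey band and line give the interquartile range and median of protein-coding genes, and crosses mark Wnt10a and Dkk4, which had no region within 1 kb of a start. The 7 effectors have a median of 16.1, and the spread within each role exceeds the differences between role medians.

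The list was also checked against markers of cell types. All 7 ES cell marker genes had a region within 1 kb of a start, but so did 6 of 6 trophectoderm, 4 of 4 primitive endoderm and 4 of 4 fibroblast genes, against the 74.7% of protein-coding genes given above. Of 4 T cell genes, taken because Tcf7 and Lef1 are known from that lineage, 3 had a region within 1 kb of a start and 1 had a start inside a region. The median densities were 19.6 regions per 100 kb for ES cell, 17.6 for trophectoderm, 9.8 for fibroblast, 8.35 for primitive endoderm and 8.29 for T cell genes. ES cell and trophectoderm genes thus had the denser surroundings, while a region at a start did not set ES cell genes apart from those of most other cell types.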

How the data were processed

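ATAC-seq libraries numbered 12, from 6 groups with 2 replicates each. The authors aligned reads to mm10 (GRCm38) with STAR 2.6.1c, removed duplicates with Picard, kept reads on the autosomes (1 to 19), X and Y, used MACS2 2.1.1.20160309 to find peaks and joined those of both lines with BEDTools. What was deposited is a list of positions in bp, where each region begins and where it ends, with 0 columns of a single sample. Whether published serum + LIF data entered the merge is not given in the sources used here. The later filters, read counting and limma tests of the authors are not part of the list.

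Regions were compared with GENCODE release 21 (M21, same build) and curated RefSeq transcripts in Python 3.11.15 with NumPy 2.4.6 and SciPy 1.17.1. Coordinates count from 1. A region belonged to a gene when it overlapped the body or its 50 kb flanks. Distal meant a center over 1 kb from every annotated TSS. For starts, the nearest edge of a region counted. Distances from the start of a gene were taken from its outermost annotated start. Motifs were searched on both strands of the central 200 bp without mismatches, except for the composite, with at most 2. Regions shorter than this window were searched in 200 bp around their center. Figures were drawn with matplotlib 3.10.9, and functions were tested on simulated data. No test between groups was possible, and intervals (95%) cover counting error only.

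The genes, gene lists and motifs were chosen with earlier results of these data known. Named were all 7 genes with their regions at starts, widest regions, regions in the gene and nearest distal region upstream, printed sequences by the rules given beside them, and of each pathway role the genes with the most and the fewest regions per 100 kb and those without a region at a start.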

Additional observations from a re-analysis of the deposited data

How the results depend on the processing

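Of 21 alternatives to the counts and shares given above, 15 stayed within their limits and 6 moved. For counts the limit was a 1.5-fold change. The gene bodies alone held 88 regions instead of 176. Flanks of 25 kb gave 138 and flanks of 100 kb gave 264, which is at the limit and was taken as unmoved. The count thus depends on the flank. The distal share of 85.8% became 90.9% with starts of protein-coding genes and 90.3% with starts of curated RefSeq transcripts, the latter added after seeing the data. The share with a TCF/LEF match, 3.98% against 3.52% of the list, became 9.66% in the central 400 bp, where the list had 6.62%. It became 16.5% with any of the 4 forms, against 17.9% of the list. With ATCAAAGG it became 0.568% (interval 0.1 to 3.15%), against 1.1%. Of 42 alternatives to the percentiles of region density among protein-coding genes, 39 stayed on the same side of the median. The exceptions were all Sp5, at 47.3%, which rose to 57.7% without regions under 200 bp, to 54.8% with 25 kb flanks and to 97.8% in the gene body alone, where 2 regions lie in 2.81 kb. With 1 TSS per gene, 6 of the 7 genes had a region within 1 kb, Ctnnb1 being the exception.

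No paired analysis was possible because regions carry no values of single samples, and for the same reason no replicate could be left out. Only 176 regions carry the motif shares, so differences from the list smaller than the intervals were not detectable.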
